A study of Homo sapiens with 14 samples.

Results

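Lineage markers of astrocytes, oligodendrocytes and neurons were followed on 14 Human Transcriptome Array 2.0 arrays of U87MG, an established human glioblastoma cell line. The markers were GFAP, S100B, FABP7 and SOX9 for astrocytes and their radial glial precursors, OLIG2 and SOX10 for the oligodendrocyte lineage, and TUBB3, MAP2, NCAM1 and GAP43 for neurons. A marker was read from the brightest transcript cluster (the probes summarised as 1 transcript locus) that carried its symbol and no other. This gave 9 of the 10 markers, among 22465 genes with such a cluster and 67528 clusters in all. TUBB3, which encodes the beta-3 tubulin of neurons, had no cluster of its own, because the single cluster with its symbol also carries MC1R, and it has no level here. Each of the other 9 had exactly 1 cluster.

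All 14 arrays came from this 1 cell line. The 3 gliosphere arrays held untreated spheres grown from cells sorted by FACS for CD133 and kept in serum-free medium with EGF, bFGF, LIF, N2 and B27 on ultralow attachment plates. The 3 BMT and the 3 WJT arrays held gliospheres of passage 13 kept for 7 days in CM (conditioned medium) of mesenchymal stem cells (MSCs) from bone marrow or from Wharton's jelly, respectively. The 2 negative sphere arrays held cells labelled as glioma spheroids that are not stem cells, which the methods describe as the sorted fraction that failed to form spheres, and the 3 cell line arrays held untreated adherent U87MG cultures in serum. Both of these kinds of culture belong to the control group that the study describes as measured in triplicate, and since the sources used here do not say on which arrays, all 5 served as control. No label ties a CM-treated array to an MSC donor, and the p-values below measure the spread between these arrays. The study stained cells for GFAP, beta-3 tubulin and OLIG proteins as markers of differentiated cells and reported a substantial presence of all its markers. Those cells came from dissociated spheres of passage 13 and were plated on coverslips in medium with serum, unlike the spheres on these arrays. The question addressed here is what the corresponding RNAs did in the 5 groups.

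In brain, radial glial precursors give rise to neurons, astrocytes and oligodendrocytes, and each lineage is recognised by a characteristic set of transcription factors and structural proteins. GFAP is the intermediate filament of mature and reactive astrocytes, while OLIG2 and SOX10 are transcription factors of the oligodendrocyte lineage and MAP2 stabilises the microtubules of dendrites. Glioma cells often carry markers of several lineages, and lines kept in serum for long can lose some of them.

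Arrays of the same group differed in how closely they followed each other. Across all clusters, arrays of BMT and of WJT correlated at 0.9903 to 0.9942, gliospheres at 0.9643 to 0.9834, the negative spheres at 0.9846 and the cell line at 0.9283 to 0.9612. Gliospheres replicate 3 and cell line replicate 3 stood apart from their groups, and differences that they move by over 1.5 times are also given without them. Signals are log2 values, and array medians over all clusters lay between 3.58 and 3.92. A signal near the bottom of this scale need not come from RNA of the gene, so a background limit was set for each group. It is the 95th percentile of the group means of 38 measured genes restricted to tissues such as liver, pancreas, eye or testis, and it lay between 4.01 and 4.19, while the median of these genes was 3.40 to 3.46. A few reference genes were brighter, and GAST reached 5.35 to 5.94. Levels of different genes were not compared with each other, since probes differ in brightness, and in whole cultures fewer cells of a type and less RNA per cell cannot be told apart.

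Of the 9 markers, 4 (GFAP, S100B, OLIG2 and SOX10) lay near background in all 5 groups and on 0 of 14 arrays above it. Another 4 (SOX9, MAP2, NCAM1 and GAP43) lay above the limit in all 5 groups and on 14 of 14 arrays. FABP7 was above it in 4 groups and on 9 of 14 arrays, and near it in WJT. Over all genes 12538 of 22465 (55.8%) passed the limit in at least 1 group, and 5 of 9 markers (55.6%) did so. With the level of GAST as the limit, FABP7 joined the markers near background in every group, and MAP2 fell under the limit in gliospheres and WJT and NCAM1 in negative spheres and cell line, the lower sides of their differences.

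**Figure D1:**
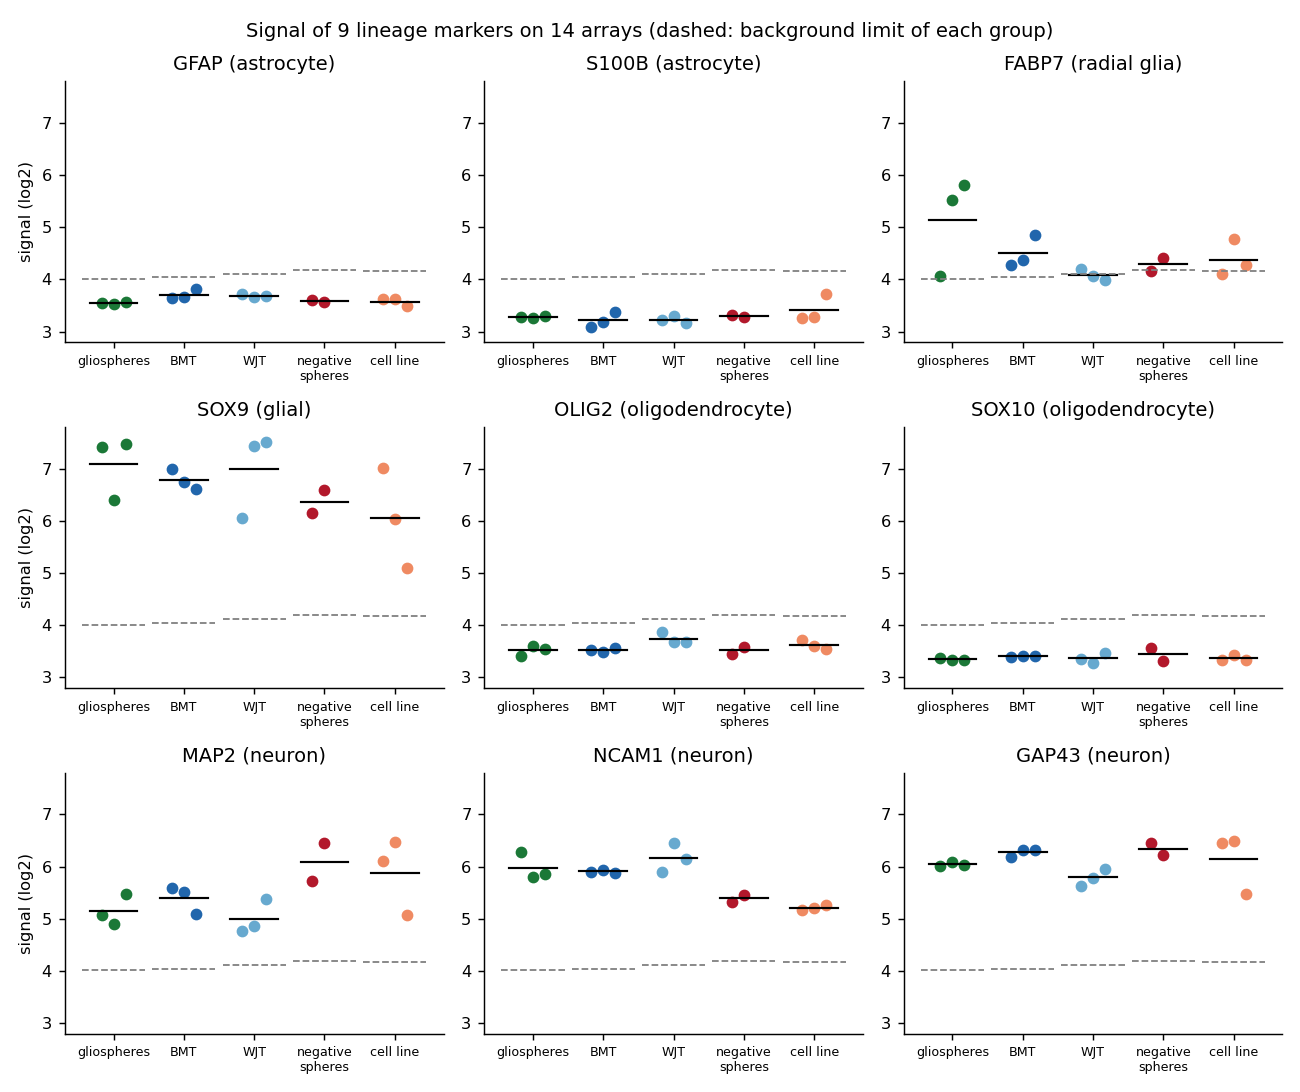
Signal of each marker (log2, vertical axis) on the 14 arrays, with points for arrays, black bars for group means and dashed bars for the background limit of each group. GFAP, S100B, OLIG2 and SOX10 stay under the dashed bars in every group, SOX9, MAP2, NCAM1 and GAP43 stay above them, and FABP7 straddles them.

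GFAP read between 3.49 and 3.81 over the 14 arrays, and its group means ran from 3.55 in gliospheres to 3.71 in BMT. All 3 BMT and all 3 WJT arrays (3.65 to 3.81) were above the 3 gliosphere arrays (3.53 to 3.57), yet every value lay under its background limit. S100B, a calcium-binding protein of astrocytes, read between 3.09 and 3.72, and its highest value, on cell line replicate 3, lay under the limit as well. GFAP and S100B were thus at the level of the reference genes, and no fold change is given for them.

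OLIG2 read between 3.41 and 3.87, with the highest group mean (3.74) in WJT and 3.52 in gliospheres, BMT and negative spheres. SOX10 read between 3.28 and 3.56 and its group means spanned 0.10. Neither transcription factor of the oligodendrocyte lineage was above background on any array, and the higher WJT values of OLIG2 lay within the range of the reference genes.

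FABP7, the brain fatty acid-binding protein of radial glia, varied mainly among the gliospheres. It read 4.07, 5.52 and 5.80 on the 3 gliosphere arrays, 4.27, 4.37 and 4.86 in BMT, and 4.21, 4.06 and 3.99 in WJT. Negative spheres gave 4.16 and 4.42 and the cell line 4.10, 4.77 and 4.28. Gliospheres replicates 2 and 3 were the highest of all 14 arrays, whereas gliospheres replicate 1 was among the lowest, so that the gliospheres overlapped with every other group. The order of group means was gliospheres (5.13 ± 0.93, SD, n = 3), BMT (4.50 ± 0.32), cell line (4.38 ± 0.34), negative spheres (4.29 ± 0.18) and WJT (4.09 ± 0.11), and all neighbours in this order overlapped.

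SOX9, a transcription factor of glial fate that also acts in neural stem cells, was above background on every array and varied widely within groups. The 3 gliosphere arrays read 7.42, 6.39 and 7.47, BMT 6.99, 6.74 and 6.61, and WJT 6.06, 7.44 and 7.51. Negative spheres read 6.15 and 6.59, and the cell line 7.02, 6.04 and 5.10. The order of group means was gliospheres (7.09 ± 0.61, SD, n = 3), WJT (7.00 ± 0.82), BMT (6.78 ± 0.20), negative spheres (6.37 ± 0.31) and cell line (6.06 ± 0.96). Neighbours in this order overlapped except BMT and negative spheres, and the cell line alone ran from 5.10 to 7.02 while the 5 group means spanned 1.03.

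MAP2, the dendritic microtubule-associated protein, was lower in gliospheres, treated or not, than on most control arrays. It read 5.07, 4.90 and 5.47 in gliospheres, 5.60, 5.51 and 5.09 in BMT and 4.77, 4.86 and 5.38 in WJT. Negative spheres read 5.72 and 6.46, and the cell line 6.11, 6.47 and 5.08. All 9 arrays of gliospheres, BMT and WJT lay below 4 of the 5 control arrays, the exception being cell line replicate 3.

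NCAM1, the neural cell adhesion molecule, showed the opposite arrangement. Gliospheres read 6.28, 5.81 and 5.85, BMT 5.90, 5.94 and 5.88, and WJT 5.89, 6.46 and 6.14. Negative spheres read 5.32 and 5.46 and the cell line 5.16, 5.21 and 5.26. Each of the 9 arrays of gliospheres, treated or not, lay above each of the 5 control arrays, with a gap from 5.46 to 5.81. The share of all clusters that separate in this way was not counted, so the gap is a description only. Within the 9 arrays the 3 groups overlapped, and BMT and WJT were not tested against control.

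GAP43, a growth-cone protein of regenerating axons, varied least of the markers above background between groups, whose means spanned 0.55. It read 6.02, 6.09 and 6.04 in gliospheres, 6.18, 6.32 and 6.32 in BMT and 5.62, 5.79 and 5.96 in WJT. Negative spheres read 6.46 and 6.22 and the cell line 6.45, 6.50 and 5.48. All 3 BMT arrays lay above and all 3 WJT arrays below the 3 gliosphere arrays, and cell line replicate 3 was the lowest of all 14.

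Gliospheres were first compared with control (negative spheres and cell line together) in a limma fit of all clusters, with Benjamini-Hochberg adjustment over all of them. NCAM1 was the single marker that passed an adjusted p of 0.05, 1 of 9 against 0.569% of all clusters. At an unadjusted p under 0.05 there were 3 of 9 (10.9% of all clusters), and at the criterion of the study's methods (a fold of 2 or more together with an unadjusted p not above 0.05) 0 of 9 (1.63% of all clusters). NCAM1 averaged 5.98 ± 0.26 (SD, n = 3) in gliospheres and 5.28 ± 0.12 (n = 5) in control, a difference of 0.69 ± 0.14 (SE) or 1.62-fold, with an adjusted p of 0.048. This p sits at the threshold, and the call was kept in 3 of 23 alternative analyses, whose adjusted p ran from 0.0382 to 0.214 while the difference stayed between 0.54 and 0.78. Leaving out any 1 array other than WJT replicate 1 or 2 gave an adjusted p from 0.0511 to 0.119, and without gliospheres replicate 3 and cell line replicate 3 the difference was 0.75 with an adjusted p of 0.0809. With the replicate number as a block the adjusted p was 0.0799.

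MAP2 and FABP7 were the other markers with an unadjusted p under 0.05, in opposite directions. MAP2 was 5.15 ± 0.30 in gliospheres and 5.97 ± 0.58 in control, a difference of -0.82 ± 0.30 (SE) with an adjusted p of 0.31 in limma, and it was -1.21 with an adjusted p of 0.0583 without gliospheres replicate 3 and cell line replicate 3. FABP7 was 5.13 ± 0.93 against 4.35 ± 0.26, a difference of 0.78 ± 0.32 with an adjusted p of 0.393 in the same limma fit. Without gliospheres replicate 1, the low array, the FABP7 difference became 1.31 and passed with an adjusted p of 0.0151, and the NCAM1 call was then lost with an adjusted p of 0.119. Without gliospheres replicate 3 and cell line replicate 3 the FABP7 difference was 0.43. SOX9 was 7.09 ± 0.61 against 6.18 ± 0.72, a difference of 0.91 with a 95% interval from -0.04 to 1.86, and of 0.45 without these arrays. GAP43 differed by -0.17 with an interval from -0.60 to 0.26, and by -0.35 without them.

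The control group pools both kinds of culture, which were therefore also compared apart, in a limma fit of 5 groups. Against negative spheres, 0 of 9 markers passed the adjusted p (0.145% of all clusters), 2 of 9 the unadjusted p (8.18%) and 0 of 9 the methods' criterion (1.88%). Both came from the neuron markers chosen here, and they went in opposite directions. NCAM1 was higher in gliospheres by 0.59 ± 0.17 (SE) with an adjusted p of 0.296 in limma. MAP2 differed by -0.94 ± 0.38 with an adjusted p of 0.534 in the same fit. Neither overlapped between the groups, but nor did GAP43, which differed by -0.29 with a 95% interval from -0.84 to 0.26. The share of all clusters without overlap was not counted, so lack of overlap is a description only, here and in all paragraphs above and below. Against the cell line, 0 of 9 passed the adjusted p (0.342%), 1 of 9 the unadjusted p (11.9%) and 0 of 9 the methods' criterion (1.82%). That marker was NCAM1 again, higher by 0.76 ± 0.15 with an adjusted p of 0.0715 in limma, and MAP2 differed by -0.74 with a 95% interval from -1.49 to 0.01. Without cell line replicate 3 MAP2 differed by -1.14 with an adjusted p of 0.129, and without gliospheres replicate 3 as well by -1.31 with an adjusted p of 0.097. Gliosphere and cell line arrays of the same replicate number deviated together in all 3 pairs (r from 0.284 to 0.396), and with the number as a block the NCAM1 adjusted p was 0.131 and the clusters called fell from 231 to 119. The comparisons with negative spheres and with the cell line share the gliosphere arrays and are not separate evidence.

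Between negative spheres and cell line, 0 of 9 markers passed the adjusted p (0% of all clusters in limma), 0 of 9 the unadjusted p (6.7%) and 0 of 9 the methods' criterion (1.35%). The 95% intervals still allowed differences from -0.64 to 1.04 for MAP2 and from -0.92 to 1.55 for SOX9, so likeness of the control cultures is not shown. NCAM1 had the narrowest interval of the 5 markers above background, from -0.20 to 0.55.

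**Figure D2:**
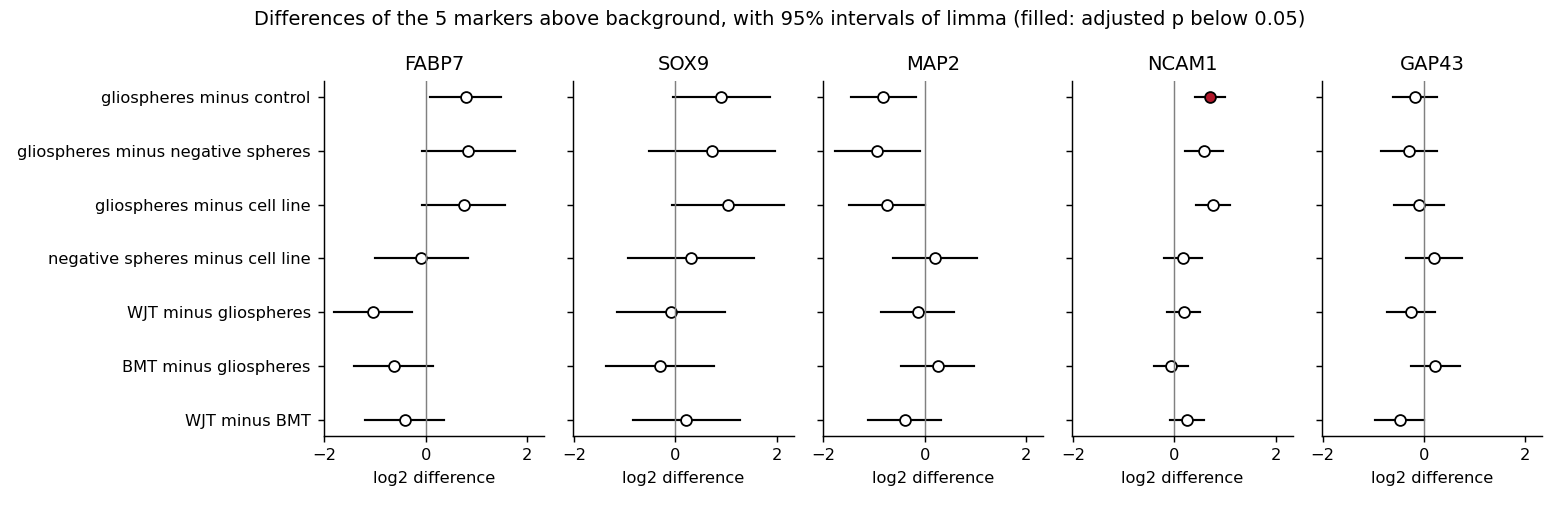
Log2 difference (horizontal axis) of the 5 markers above background in each of 7 comparisons (vertical axis), with lines for 95% intervals of limma and a filled point where the adjusted p was below 0.05. The filled point is that of NCAM1 in gliospheres minus control, and the intervals of SOX9 include 0 in every comparison.

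The treated gliospheres were compared with untreated ones to ask whether CM moved lineage markers. With CM of Wharton's jelly MSCs, 0 of 9 markers passed the adjusted p in limma (0% of all clusters), 2 of 9 the unadjusted p (6.01%) and 1 of 9 the methods' criterion (0.862%). FABP7 met that criterion, at 4.09 ± 0.11 in WJT and 5.13 ± 0.93 in gliospheres, a difference of -1.04 ± 0.36 (SE) with an adjusted p of 0.613. Gliospheres replicate 1 and the WJT arrays overlapped and 2 of the 3 WJT arrays were not above background, so the WJT level may not be that of FABP7 RNA and the size of the difference is uncertain. Without gliospheres replicate 1 the FABP7 difference was -1.57 and passed with an adjusted p of 0.0328 in limma, whereas without gliospheres replicate 3 it was -0.71 with an adjusted p of 0.846 and no longer met the fold of the methods' criterion. The other marker with an unadjusted p under 0.05 was OLIG2, which lay near background in both groups. The 95% interval of NCAM1 ran from -0.15 to 0.51 and that of MAP2 from -0.86 to 0.58.

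With CM of bone marrow MSCs, 0 of 9 markers passed the adjusted p in limma (0.00889% of all clusters), 1 of 9 the unadjusted p (8.47%) and 0 of 9 the methods' criterion (1.11%). The marker with an unadjusted p under 0.05 was GFAP, at 3.71 in BMT and 3.55 in gliospheres, both near background. FABP7 differed by -0.63 with a 95% interval from -1.41 to 0.15, and by -0.29 without gliospheres replicate 3. MAP2 differed by 0.25, and by 0.41 without that array, and SOX9 by -0.31 and -0.12. GAP43 differed by 0.22 with an interval from -0.25 to 0.70 although its groups did not overlap. NCAM1 differed by -0.07 with an interval from -0.40 to 0.26.

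WJT and BMT were also compared with each other. In limma 0 of 9 markers passed the adjusted p (0%), 2 of 9 the unadjusted p (2.98%) and 0 of 9 the methods' criterion (0.0814%). GAP43 was 5.79 ± 0.17 in WJT and 6.28 ± 0.08 in BMT, a difference of -0.48 ± 0.22 (SE) with no overlap between the groups and an adjusted p of 1.00. OLIG2 was the other, again near background in both groups.

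Across the 14 arrays, MAP2 and GAP43 varied together (Pearson r = 0.69), SOX9 and NCAM1 likewise (r = 0.66), and MAP2 and NCAM1 in opposite directions (r = -0.65). The remaining 7 pairs of the 5 markers lay between -0.37 and 0.18. These coefficients describe arrays that share 5 groups, cultures and processing, and no test was made on them. The low MAP2 and GAP43 values of cell line replicate 3 and of WJT lie at the same end of the plot of GAP43 against MAP2.

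**Figure D3:**
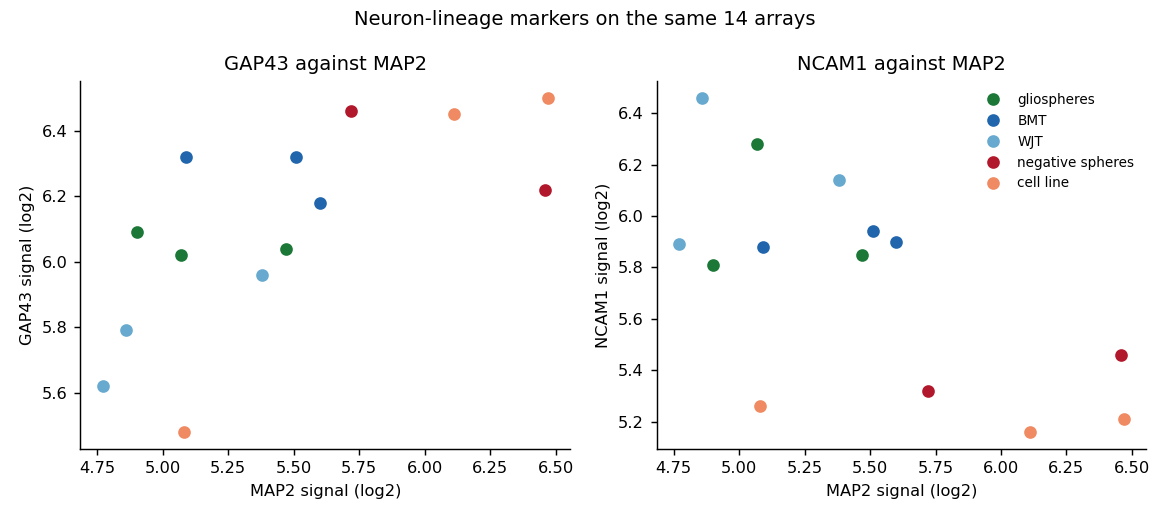
Signals (log2) of GAP43 (left) and NCAM1 (right) against MAP2 on the same 14 arrays, 1 point an array and 1 colour a group. GAP43 tends to be high where MAP2 is high (r = 0.69), while the 5 control arrays form the lower edge of the NCAM1 plot, at 5.16 to 5.46.

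The 250 bases before the start of MAP2 and of GAP43 are shown because this pair varied together. They are RefSeq windows of build GRCh38.p14, for the most upstream start listed, on the plus strand and 5′ to 3′, and capitals mark CG dinucleotides. FABP7 is the third marker with a window in that table, and the promoters of the other markers are not shown.
MAP2 (chr2:209579082-209579331): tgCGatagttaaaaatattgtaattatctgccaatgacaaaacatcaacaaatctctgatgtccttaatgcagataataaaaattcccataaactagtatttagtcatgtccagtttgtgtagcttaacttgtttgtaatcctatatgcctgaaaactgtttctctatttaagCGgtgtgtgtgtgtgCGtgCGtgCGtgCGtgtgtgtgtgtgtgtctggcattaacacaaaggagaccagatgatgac
GAP43 (chr3:115623260-115623509): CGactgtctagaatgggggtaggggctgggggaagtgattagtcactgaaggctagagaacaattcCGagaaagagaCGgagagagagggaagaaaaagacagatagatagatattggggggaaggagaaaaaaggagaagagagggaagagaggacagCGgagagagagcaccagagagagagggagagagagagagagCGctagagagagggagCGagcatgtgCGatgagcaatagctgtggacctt
The MAP2 window holds 6 CG dinucleotides and 37.6% G and C, and the GAP43 window 7 and 51.6%. Of 35116 windows in the table, 41.1% hold as few CG dinucleotides as MAP2 or fewer, 43.7% as few as GAP43, and the median is 11, so both counts lie within the common range.

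The genes whose signals most resembled those of a marker were listed for the 3 markers whose group means spanned at least 1 log2. For FABP7 these were CFAP206 (r = 0.892 over 14 arrays), KLHL3 (r = 0.888) and PTPMT1 (r = 0.881). For SOX9 they were KCTD12 (r = 0.949), MAPK1IP1L (r = 0.926) and GAB1 (r = 0.901), and for MAP2 ARHGAP20 (r = 0.933), DTWD2 (r = 0.918) and RIN2 (r = 0.91). They are the highest of 12538 genes searched and are given as a description only.

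Other markers of the same lineages were read from lists of genes. Of 18 further astrocyte markers, 10 were above background in at least 1 group, among them VIM, the intermediate filament vimentin (15.66 to 15.86 over the group means), GJA1, the astrocytic connexin (12.55 to 13.77), and CD44, a hyaluronan receptor (12.25 to 12.75). AQP4, the water channel of astrocyte endfeet (3.16 to 3.30), and ALDH1L1, a folate enzyme of astrocytes (3.43 to 3.50), lay near background in every group, as GFAP and S100B did. SLC1A2 was near background too (3.24 to 3.34), while SLC1A3 was above it in every group (6.07 to 7.12). SPARCL1 was above it in gliospheres alone, where its arrays ran from 3.27 to 8.76. In gliospheres against control 1 of 18 passed the adjusted p (0.569% of all clusters), the glial transcription factor NFIA, which read 5.26 ± 0.51 in gliospheres and 4.19 ± 0.13 in control, a difference of 1.07 ± 0.19 (SE) with an adjusted p of 0.0313 in limma and no overlap. In BMT and WJT NFIA averaged 5.10 and 5.25. In negative spheres (4.22) and cell line (4.18) NFIA lay just above the background limits of 4.19 and 4.17. The control level may therefore not be that of NFIA RNA, and the size of the difference is uncertain. The NFIA call was kept in 11 of 22 alternatives, and the difference was 0.75 with an adjusted p of 0.0541 without gliospheres replicate 3 and cell line replicate 3.

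Of 20 further genes of the oligodendrocyte lineage, 5 were above background in at least 1 group. In gliospheres against control 0 of 20 passed the adjusted p in limma (0.569% of all clusters). At an unadjusted p under 0.05 there were 2 of 20 (10.9% of all clusters), 1 higher and 1 lower in gliospheres. The brightest were ENPP2, which makes lysophosphatidic acid (9.38 to 10.90 over the group means), and UGT8, an enzyme of galactolipid synthesis (8.97 to 9.84), and neither is restricted to this lineage. The myelin gene MBP lay near background (3.04 to 3.18), as did OLIG1 (3.13 to 3.29) and SOX8 (3.33 to 3.38), so that among the 6 genes of the SOXE and OLIG families SOX9 was the only one above it. PDGFRA, a receptor of oligodendrocyte precursors and of mesenchymal cells that was singled out after its values were seen, read 7.26 ± 1.53 in gliospheres and 5.21 ± 0.41 in control with an adjusted p of 0.114 in limma, and its highest value, 9.02, was that of 1 gliosphere array.

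Of 27 further neuron markers, 7 were above background in at least 1 group. In gliospheres against control 1 of 27 passed the adjusted p (0.569% of all clusters) and 5 of 27 the unadjusted p (10.9% of all clusters), all lower in gliospheres, while the median difference of the list was -0.05 beside -0.04 over all genes. Not all of these 5 were above background in a group, and signals near background do not resolve a difference. The gene that passed was ENO2, neuron-specific enolase, a glycolytic enzyme also found in tumour cells, which read 8.77 ± 0.47 in gliospheres and 10.67 ± 0.64 in control, a difference of -1.91 ± 0.34 (SE) with an adjusted p of 0.0332 in limma. The ENO2 call was kept in 10 of 23 alternatives, and the difference was -1.74 with an adjusted p of 0.0774 without gliospheres replicate 3 and cell line replicate 3. SNAP25, a SNARE protein of synaptic vesicle release that was singled out after its values were seen, was likewise lower in gliospheres, BMT and WJT than in both kinds of control, at 6.89 in gliospheres, 6.41 in BMT, 6.12 in WJT, 9.07 in negative spheres and 8.79 in the cell line, with an adjusted p of 0.0721 for gliospheres against control. Of the other neuron markers above background, GAD1 was also lower in gliospheres (4.19) than in negative spheres (4.51) and cell line (4.38). UCHL1 hardly differed between groups (14.21 to 14.28). MAP1B was 13.04 in gliospheres, 12.98 in negative spheres and 12.39 in the cell line. In gliospheres SYT1 (5.63) and DPYSL3 (7.69) lay between negative spheres (5.80 and 8.07) and cell line (5.29 and 7.36). DCX (3.05 to 3.17), RBFOX3 (3.28 to 3.43) and STMN2 (3.17 to 3.27), markers of young and mature neurons, lay near background in all groups.

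The relatives of the markers were measured too. Besides MAP2, 5 of 7 other microtubule-associated proteins were above background in at least 1 group, MAP1B (12.39 to 13.27 over the group means), MAP1A (8.65 to 10.11), MAP4 (7.57 to 8.62), MAP1S (5.54 to 6.14) and MAP6 (4.05 to 4.38). In gliospheres against control 0 of 8 in this family passed the adjusted p (0.569% of all clusters). Of 7 measured beta-tubulins, 5 were above background, the widely used TUBB, TUBB4B and TUBB6 among them. Among 10 intermediate filament genes 2 were above background, VIM and NES, the nestin of neural precursors (4.32 to 4.68). In the FABP family FABP3, the heart type, read 5.29 in gliospheres, 5.76 in BMT and 5.04 in WJT and lay near background in negative spheres (3.93) and cell line (4.14). Its gliosphere arrays ran from 4.46 to 6.41. FABP5, the epidermal type, read from 5.71 to 6.38. In gliospheres against control 0 of 7 in this family passed the adjusted p in limma (0.569% of all clusters). At an unadjusted p under 0.05, 3 of 7 were higher and 1 of 7 lower in gliospheres (10.9% of all clusters). Of 13 genes of the S100 family 8 were above background without S100B. In gliospheres against the cell line 1 of 13 passed the adjusted p (0.342% of all clusters). This was S100A10, lower in gliospheres (7.72 ± 0.06) than in the cell line (8.61 ± 0.31), a difference of -0.89 ± 0.14 (SE) with an adjusted p of 0.0284 in limma. The S100A10 call was kept in 8 of 22 alternatives, and the adjusted p was 0.0745 in limma without gliospheres replicate 3 and cell line replicate 3.

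**Figure D4:**
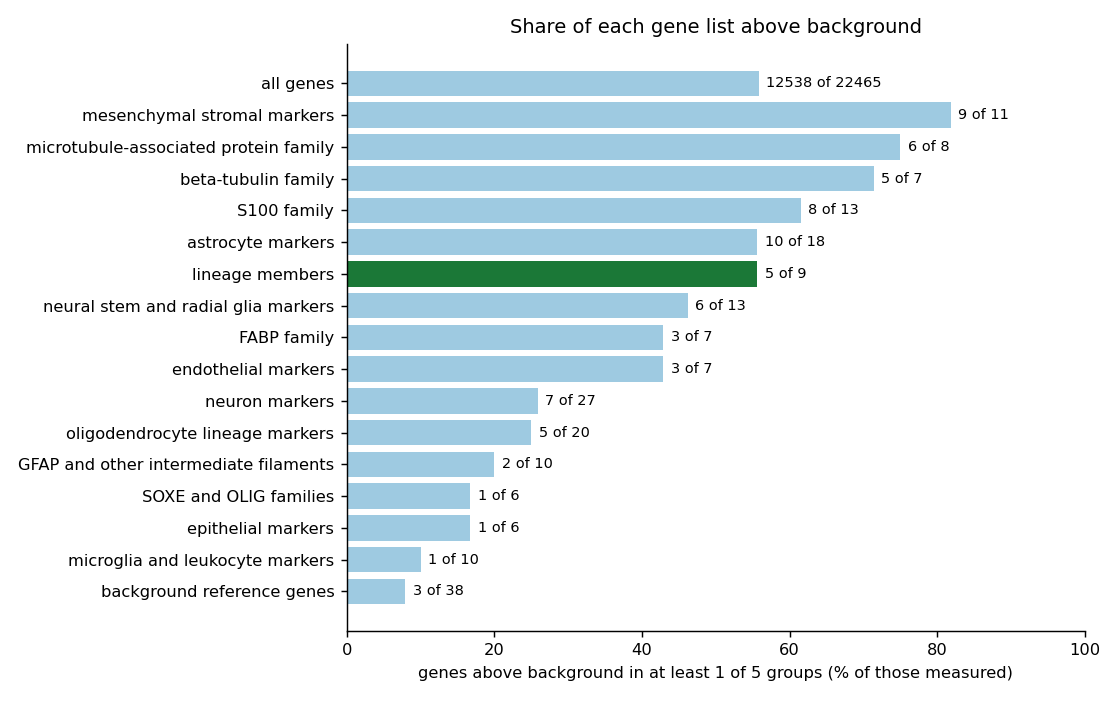
Percent of the measured genes of each list (vertical axis) that lay above background in at least 1 of 5 groups (horizontal axis, %), with the counts beside the bars and the 9 lineage markers in green. The lists of neuron and oligodendrocyte markers, at 25.9% and 25%, lie below the 55.8% of all genes, and the astrocyte list equals the lineage markers at 55.6%.

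The labels were set against markers of stem cells and of other cells. PROM1, which encodes CD133, the protein used in the sort, lay near background in all groups (3.45 to 3.59), as did SOX2 (3.55 to 3.78) and MSI1 (3.62 to 3.74), while PAX6 was above it (5.48 to 6.10), as was NES. The study measured CD133 protein by flow cytometry and reported sphere cultures enriched for it. Its PCR array listed PROM1 as higher in gliospheres, without significance. Array RNA is a different measure and does not show whether the protein was present. No marker of microglia or leukocytes except CSF1R (4.14 to 4.27) passed the limit in any group, and PTPRC, the pan-leukocyte marker, was near background (3.19 to 3.37). Of 7 endothelial markers 3 were above the limit in at least 1 group, KDR in all 5 (4.50 to 4.91), CLDN5 in gliospheres, BMT and WJT (4.08 to 4.17) and TEK in BMT and WJT (4.12 and 4.13), while PECAM1 (3.52 to 3.999) and CDH5 (3.36 to 3.49) were near background. Stromal markers were above background for 9 of 11 genes in every group, with an array mean of the list of 7.34 to 8.69 in gliospheres, 8.15 to 8.20 in BMT, 8.37 to 8.55 in WJT, 7.64 to 7.67 in negative spheres and 7.00 to 8.85 in the cell line. THY1, a defining marker of MSCs, lay near background in all groups (3.24 to 3.48). NT5E (16.4 to 18.5) and ENG (6.8 to 7.6), MSC markers of the same list, were above it in every group. All cultures were of U87MG, and the study filtered its CM before use. A part of these stromal genes in the differences of FABP7 or NCAM1 was not tested.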

How the data were processed

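Values deposited for the 14 arrays are log2 signals, 1 per transcript cluster. The authors derived them with SST-RMA, a robust average with background correction and quantile normalization, in the Transcriptome Analysis Console. How this normalization treated low signals is not known here, and array medians still differed. Of 70523 features, 2995 that are no transcript clusters were left out, and symbols came from the array annotation. All 67528 clusters were fitted with limma 3.58.1 in R 4.3.3 (lmFit and eBayes), with 4 groups (negative spheres and cell line as 1 control group, as in the study's methods) or 5 groups. The labels number the replicates but give no source of a pairing, so the fit has no block and the block is an alternative. Deviations from the group means correlated above 0.1 in 11 of 26 pairs of arrays with the same number and in 11 of 52 with different numbers. They did so in all 3 same-number pairs of gliospheres with cell line and of BMT with cell line. What these arrays share was not tested, and the results with the block are given beside the others. The number of arrays limits the precision. A difference passed at a Benjamini-Hochberg adjusted p below 0.05 over all clusters. The 10 markers, the gene lists and the reference genes were chosen with earlier results of these data known. Named from the lists were genes that passed, otherwise the brightest, relatives and neuron markers above background, and markers defining a cell type. Correlations and figures used Python 3.11.15 with pandas 2.3.3, numpy 2.4.6 and matplotlib 3.10.9. The fit was tested on simulated data. Alternatives were quantile normalization, median centring, a mean log2 of at least 5, a trended robust prior, array weights, a replicate block, other sets of groups and each array left out. Leaving out gliospheres replicate 3 with cell line replicate 3 was chosen after seeing the data. PCR arrays and culture assays of the study were not analysed here.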

Additional observations from a re-analysis of the deposited data

Results flagged for a closer look

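Dixon's test was run on the 5 control arrays for each of the 9 markers, since the other groups hold 3 arrays or fewer, with a critical ratio of 0.71, and chance alone gives about 1 such value in 20 groups. S100B on cell line replicate 3 was far from the others, at 3.72 against 3.26 to 3.32 (ratio 0.869), and all 5 values lay under the background limit. GAP43 on cell line replicate 3 was far from the others in the opposite direction, at 5.48 against 6.22 to 6.50 (ratio 0.723). The same array had the highest background limit of the 14, 4.50, and the highest median over all clusters, 3.92. The part of these array-wide values in the S100B and GAP43 readings was not tested.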

How the results depend on the processing

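Of 783 values of a marker above background under an alternative, 733 kept their direction and their side of the threshold, and 26 of 35 comparisons of a marker showed no change of direction. The count of markers called in gliospheres against control, 1, fell to 0 under quantile normalization, median centring, the trended robust prior, array weights, only the arrays of the groups compared, 5 groups, the methods' criterion and without gliospheres replicate 3 and cell line replicate 3, and ran from 0 to 1 when single arrays were left out. With the replicate block it was also 0 (NCAM1 adjusted p 0.0799), and the block changed no other call of a marker. The clusters called there numbered 384, and 24 with only the arrays compared. In WJT against gliospheres the count, 0, became 1 by the methods' criterion and ran from 0 to 1 with single arrays left out. Near background were 4 markers, 5 with the brightest reference gene as the limit and 2 with the median of all clusters.

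Differences that changed sign had main values between -0.14 and 0.31. SOX9 in WJT against gliospheres (-0.09) was 0.0485 with quantile normalization, 0.18 with array weights and 0.10 without gliospheres replicate 3 and cell line replicate 3, and ran from -0.44 to 0.38 with single arrays left out, while MAP2 there (-0.14) was 0.0204 without those arrays and ran from -0.33 to 0.0204. NCAM1 in BMT against gliospheres (-0.07) was 0.091 with quantile normalization and ran from -0.16 to 0.0796. SOX9 in WJT against BMT (0.22) ran from -0.0313 to 0.69. GAP43 in gliospheres against cell line (-0.09) was 0.0303 with median centring and ran from -0.42 to 0.0827. In negative spheres against cell line, FABP7 (-0.09) was 0.0405 with quantile normalization, 0.00654 with median centring and 0.0147 with the replicate block, and ran from -0.23 to 0.10. There MAP2 (0.20) was -0.0762 with array weights and -0.20 without those arrays (range -0.20 to 0.57), SOX9 (0.31) was -0.17 without them (range -0.17 to 0.80), and GAP43 (0.20) was -0.00364 with array weights and -0.13 without them (range -0.13 to 0.37). The cause of these changes was not tested. Each marker has 1 cluster, so a mean over clusters gives the same values. For GFAP, S100B, OLIG2 and SOX10 no difference was followed, because signals this close to background do not resolve one.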
